A study of Homo sapiens with 17 samples.

Results

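The state of cells labelled as an NSD1 knockout of Cal27 and cultured with EPZ-6438 was compared with that of parental Cal27 cells cultured with DMSO, gene by gene. The comparison used 4 of the 10 RNA libraries of the series, 2 per group, and took in every gene that passed a filter on low counts, 13241 of the 34496 gene rows of the deposited table. Cal27 is an established line from a squamous cell carcinoma of the tongue. The treated group carried both the knockout label and the inhibitor, and the reference group carried neither but had received DMSO. EPZ-6438, also called tazemetostat, blocks the catalytic site of EZH2. The labels give no dose or time of treatment. A further pair of libraries of the labelled knockout with DMSO entered the same fit and is given beside the results as the level without the inhibitor. One labelled knockout line was measured, and parental cells given EPZ-6438 are not among the RNA libraries analysed here, so in this comparison the parts of the line and of the inhibitor cannot be told apart. No label says whether the replicates came from separate cultures, so p-values refer to the spread among these libraries, which could be technical.

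NSD1 places methyl groups on H3K36, a mark of active and intergenic chromatin, and EZH2 is the enzyme of the PRC2 complex that places methyl groups on H3K27, a mark of silenced genes. The presence of H3K36 methylation is known to hinder PRC2 on the same histone tail. In squamous epithelium, basal cells are known for the keratins KRT5 and KRT14 and for the transcription factor TP63, and upper layers for cornified envelope proteins. Secretory mucosal epithelium is instead known for mucins, the immunoglobulin transporter PIGR and simple keratins. Epithelial cells also answer interferons through JAK kinases and transcription factors such as STAT2 and IRF9, which bind interferon response elements in the promoters of antiviral genes.

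Total counts, in units of 1000000, were 14.04 and 13.85 in the parental libraries, 12.85 and 13.74 in the labelled knockout with DMSO and 11.75 and 15.51 in the treated libraries. Levels are given as counts per 1000000 after scaling (CPM), in the order of the replicate numbers. Differences are log2 values, treated minus parental, with the standard error (SE) of the edgeR quasi-likelihood fit, and a gene was called at an adjusted p below 0.05. NSD1 itself stood at 113 and 113 CPM in the parental libraries, 164 and 162 CPM in the labelled knockout with DMSO and 160 and 149 CPM in the treated libraries. It was higher than in parental cells by 0.45 ± 0.04 (edgeR, adjusted p = 1.4e-07), so the counts do not check the knockout label. The epithelial markers EPCAM, CDH1, KRT8 and KRT18 were counted in every library, with EPCAM at 250 and 234 CPM in the treated and 243 and 251 CPM in the parental cells. Of 14 leukocyte markers 5 were tested: CD14, LAPTM5 and CD68 were higher, CSF1R and ITGAM were not called, and the list summed to 83.7 and 84.0 CPM in parental and 236 and 230 CPM in treated libraries. The defining leukocyte genes stayed at or near 0, with 9 counts of PTPRC in the parental pair and 6 in the treated pair, and no counts of CD3D, CD2, MS4A1 or NKG7 in either. The fibroblast list summed to 18.0 to 20.2 CPM in parental and 20.8 to 24.2 CPM in treated libraries, and 2 of its 5 tested members were called higher, COL1A2 by 1.49 ± 0.27 and COL3A1 by 3.07 ± 0.59, with THY1 at 1 and 0 counts. The endothelial list summed to 16.9 to 17.4 CPM in parental and 26.1 to 28.6 CPM in treated libraries. Of its 3 tested members CDH5 was higher by 0.72 ± 0.10, PECAM1 was higher by 1.71 ± 0.42 at 0.583 and 0.889 CPM in parental cells and 0 CPM in the untreated Cal27 library, and VWF was lower, at -1.92 ± 0.61, a call lost in edgeR without parental replicate 2 (-1.66, adjusted p = 0.073), while KDR had 2 and 1 counts. The part of other cell types in the results was not tested. The share of counts from mitochondrial genes was 7.06% and 7.25% in parental libraries against 5.83% and 5.44% in treated ones. Of the tested genes, 69 (0.521%) lay at least 8-fold apart between the DMSO and the single untreated library of Cal27, a gap that cannot be told apart from culture, library or counting, and each such gene named below is given with its untreated level. Genes with near-identical copies (HLA genes, KRT6A with KRT6B and KRT6C, SAA1 with SAA2, C4A with C4B, S100A7 with S100A7A, MAGEA3 with MAGEA6, ribosomal proteins with their pseudogenes) could share reads, and their separate values are uncertain. Whether strand was used in counting is not given in the sources used here, so reads of a gene and of an antisense partner cannot be told apart. The lists were fixed with earlier results of these data known and their counts are descriptions. Members outside the naming rule, mostly those not called or moving against their list, were chosen after their values were seen.

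The treated cells differed from parental cells across much of the transcriptome. They were higher than parental cells for 3456 genes (26.1% of the genes tested) and lower for 3428 (25.9%). Out of 13241 genes, 6884 were called in all (52%). The counts for gene lists below are to be read against these shares. At a fitted difference of 2-fold or more the directions were unequal, with 846 genes higher (6.39%) and 300 lower (2.27%). With at least 50 counts required in 2 libraries these became 541 and 173. The unadjusted p was under 0.05 for 7540 genes. The libraries of both groups did not overlap for 6865 of the 6884 called genes, and for 9917 of all tested genes. Many called differences were small: for 6918 genes (52.2%) the 95% interval of the difference lay within 0.5 log2 of parental, and 2969 of these were called. For 1478 genes (11.2%) the interval lay wholly beyond 0.5 log2, 1054 above and 424 below, and for the remaining 4845 (36.6%) it spanned that margin. As a distance over all tested genes, the root mean square log2 difference was 0.679 between treated and parental cells, 0.604 between the labelled knockout with DMSO and parental cells, and 0.748 between the labelled knockout with and without the inhibitor. Replicates of one group lay 0.319 to 0.339 apart by root mean square. That distance is between single libraries, whereas those between groups are between means of 2 libraries, so it carries more noise. As median absolute log2 differences, the 3 distances between groups were 0.254, 0.172 and 0.229 in the same order. By both measures the treated cells lay no nearer to parental cells than the labelled knockout with DMSO did. The root mean square placed the treated cells nearer to parental cells than to the labelled knockout with DMSO. The median placed them nearer to the labelled knockout. These distances share libraries, and they are given side by side without a test.

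**Figure D1:**
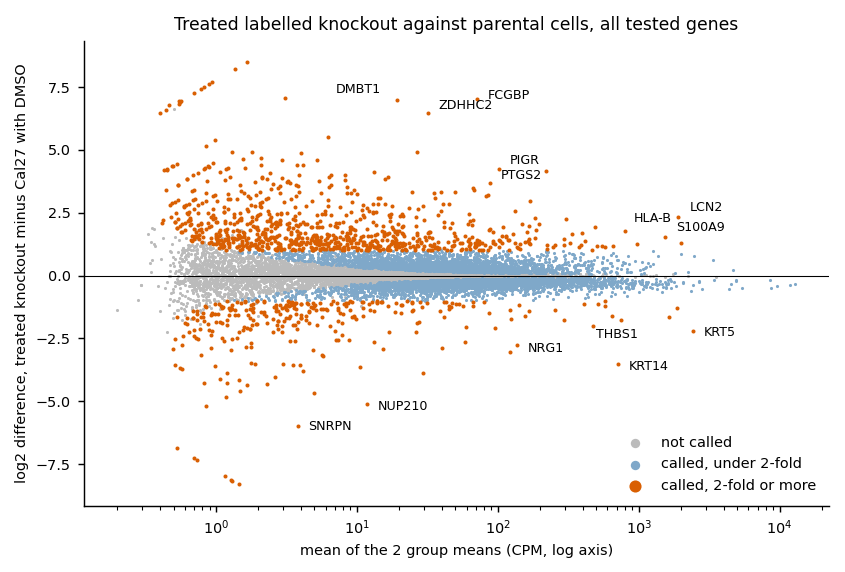
Log2 difference between the treated labelled knockout and parental Cal27 (vertical axis) against the mean CPM of the groups (horizontal axis, log scale) for 13241 genes, 1 point per gene. Points for genes called at 2-fold or more number 846 above and 300 below 0, and FCGBP, DMBT1, PIGR and LCN2 stand above while KRT14, KRT5, NRG1 and THBS1 stand below.

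Mucins and secreted proteins of mucosal defence had the highest medians of the lists with 5 or more tested members. All 14 tested members of the mucosal defence list were called higher, with a median log2 difference of 2.45 against 0.004 over all tested genes. All 6 tested mucins were higher, with a median of 3.10. In the labelled knockout with DMSO the medians against parental cells were -0.21 and -0.14. The defence list holds 24 genes and the mucin list 14, and the others were too low to test. Some tested members passed the low-count filter only through the treated libraries. DMBT1, for example, had 8 counts in the parental pair, 4 in the labelled knockout with DMSO and 1068 in the treated pair. The shares and medians are thus partly set by the filter. FCGBP, a large mucus protein that binds the Fc part of IgG, was counted at 1.24 and 0.889 CPM in the parental, 1.69 and 1.58 CPM in the labelled knockout with DMSO and 138 and 145 CPM in the treated libraries. The treated libraries were both far above all others, and the difference was 7.04 ± 0.24 (edgeR, adjusted p = 6.6e-18). PIGR, which carries IgA and IgM across epithelia, went from 9.12 and 11.4 CPM in parental to 190 and 197 CPM in treated cells, with 12.6 and 14.3 CPM in the labelled knockout with DMSO. The difference from parental was 4.24 ± 0.10 (adjusted p = 2.6e-17), and the treated and parental libraries did not overlap. DMBT1, a scavenger protein of saliva that binds bacteria, was at 0.219 and 0.371 CPM in parental and 37.1 and 40.0 CPM in treated cells. LCN2, a protein that captures bacterial siderophores, had 639 and 618 CPM in parental, 941 and 944 CPM in the labelled knockout with DMSO and 3204 and 3203 CPM in treated cells, a difference of 2.35 ± 0.02. The untreated Cal27 library held 73.8 CPM of LCN2, more than 8-fold below Cal27 with DMSO, so its parental level differs between the sets of libraries. The other members were higher too. The antimicrobial ribonuclease RNASE7 differed by 3.18 ± 0.07, the iron-binding lactoferrin LTF by 3.80 ± 0.27, and the protease inhibitors SLPI and PI3 by 1.5 ± 0.04 and 1.54 ± 0.05. The beta-defensin DEFB4A, which kills bacteria and has a near-identical gene copy, was at 0.438 and 0.519 CPM in parental, 0 and 0.0720 CPM in the labelled knockout with DMSO and 2.95 and 3.63 CPM in treated cells. The acute phase proteins SAA1 and SAA2 differed least, by 0.58 ± 0.04 and 0.48 ± 0.04. OLFM4, a secreted glycoprotein of crypt and gland epithelium outside the list, was at 24.4 and 22.0 CPM in parental, 69.6 and 68.9 CPM in the labelled knockout with DMSO and 421 and 409 CPM in treated cells. In bulk RNA, fewer cells of a type and less RNA per cell cannot be told apart, here and in what follows.

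Among mucins, the membrane-bound MUC4 was at 12.8 and 10.3 CPM in parental, 4.54 and 4.18 CPM in the labelled knockout with DMSO and 127 and 121 CPM in treated libraries. It lay below parental with DMSO alone and above it with the inhibitor, by 3.42 ± 0.09 (edgeR, adjusted p = 1e-15). The gel-forming MUC2 stood at 2.41 and 1.63 CPM in parental, 14.5 and 11.5 CPM in the labelled knockout with DMSO and 34.6 and 27.4 CPM in treated cells, so that it was above parental in both. MUC16 and MUC20 differed by 2.43 ± 0.07 and 2.77 ± 0.11, and MUC1 by 0.56 ± 0.06. MUC16 was at 102 and 108 CPM and MUC20 at 50.1 and 52.9 CPM in treated cells. The single untreated libraries of Cal27 and of the labelled knockout held 76.5 and 124 CPM of MUC16 and 19.6 and 49.8 CPM of MUC20. For both genes the untreated labelled knockout was thus near the treated level without the inhibitor. It held less of MUC4 and MUC2, 10.7 and 2.6 CPM. MUC6 had no count in the parental pair and 44 in the treated pair, which is at least 14.5-fold higher against a floor of 3 counts over the group. The single library of the labelled knockout with no treatment, outside this comparison, held 12.1 CPM of MUC6. SPDEF, a transcription factor of goblet and other secretory cells, was at 0.219 and 0.371 CPM in parental and 4.30 and 4.39 CPM in treated cells, and FOXA1, a factor of glandular epithelium, at 12.6 and 10.1 CPM and 23.1 and 22.8 CPM.

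**Figure D2:**
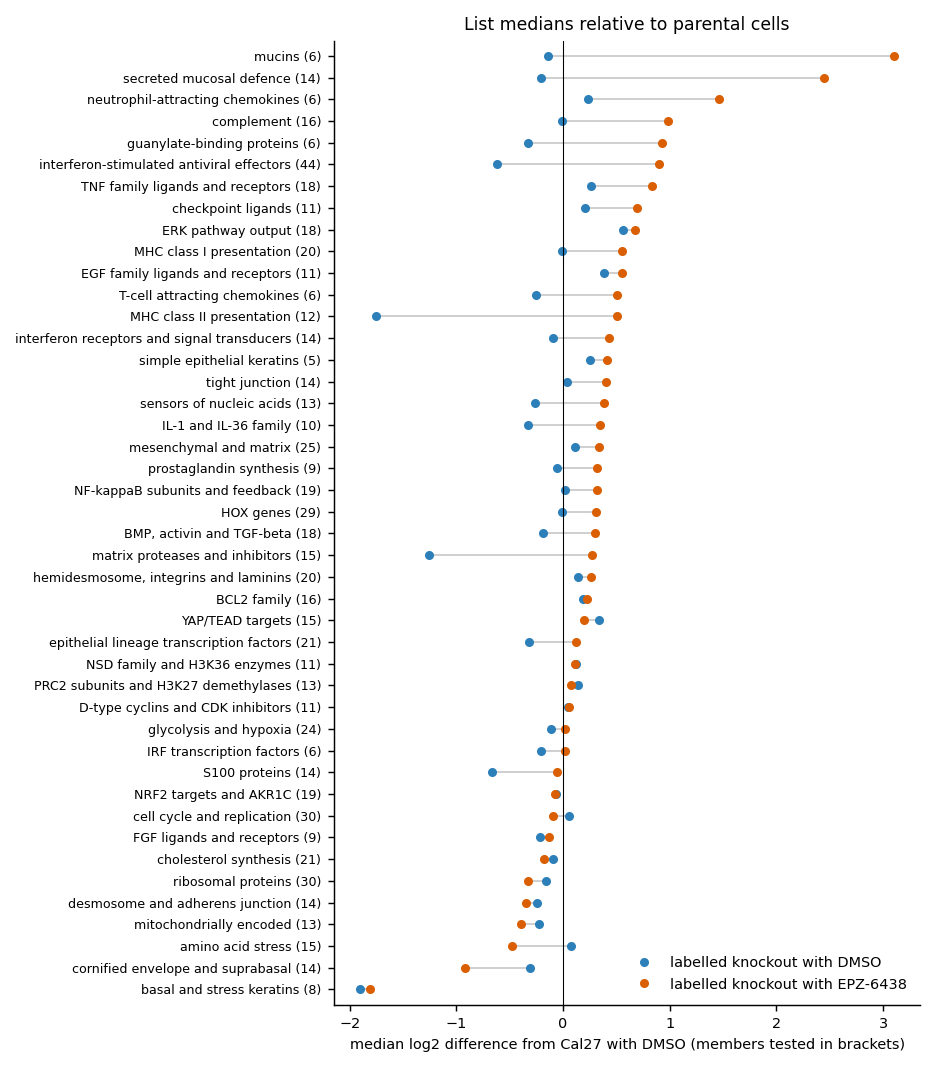
Median log2 difference from parental Cal27 with DMSO (horizontal axis) for 44 gene lists, for the labelled knockout with DMSO (blue) and with EPZ-6438 (orange), with the number of tested members in brackets. Mucins and secreted mucosal defence lie furthest to the right with the inhibitor, at 3.10 and 2.45, and the basal and stress keratins lie near -1.8 to -1.9 in both.

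The interferon pathway was above the parental level from its signal transducers to its effectors, with exceptions among receptors and regulatory factors. Of 14 receptors and transducers, 10 were higher and 1 lower, with a median of 0.43. The type I receptor chain IFNAR1 differed by 0.50 ± 0.06 and the type II chain IFNGR2 by 0.56 ± 0.05, while IFNAR2 was not called, at 0.11 ± 0.11. IFNLR1, the chain specific for type III interferon, stayed lower, at 7.44 and 7.04 CPM in parental, 1.23 and 0.720 CPM in the labelled knockout with DMSO and 4.38 and 4.64 CPM in treated cells. STAT2 and IRF9, partners in type I signalling, differed by 0.63 ± 0.04 and 0.42 ± 0.05, and the kinase JAK1 by 0.49 ± 0.04. Of the feedback inhibitors, SOCS3 was higher by 0.74 ± 0.06 and SOCS1 was not called, at -0.39 ± 0.18. The 6 tested IRF factors went both ways, 3 higher and 2 lower, with a median of 0.02, beside 26.1% and 25.9% of all tested genes. IRF7, which drives interferon genes, was at 42.7 and 40.2 CPM in parental, 13.7 and 12.7 CPM in the labelled knockout with DMSO and 76.4 and 83.6 CPM in treated cells. IRF2 was higher by 0.49 ± 0.07 and IRF1 by 0.12 ± 0.04, and IRF3 and IRF5 were lower, at -0.15 ± 0.05 and -0.74 ± 0.16. The call for IRF1 was lost without parental replicate 2 (0.07, adjusted p = 0.28) or treated replicate 1 (0.11, adjusted p = 0.09), and that for IRF3 without parental replicate 1 (-0.12, adjusted p = 0.12) or treated replicate 2 (-0.14, adjusted p = 0.065), all by edgeR.

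Antiviral effectors overshot the parental level as a list. Of 44 tested members 42 were called higher and none lower, with a median of 0.90, whereas the labelled knockout with DMSO stood at -0.62 against parental cells. IFI6, a membrane protein that limits flavivirus replication, was at 231 and 239 CPM in parental, 29.6 and 26.4 CPM in the labelled knockout with DMSO and 532 and 568 CPM in treated cells. Its 3 groups did not overlap, and the treated libraries stood highest, by 1.23 ± 0.04 (edgeR, adjusted p = 3.6e-14). The GTPases MX1 and MX2, which trap viral nucleocapsids, differed by 1.16 ± 0.03 and 1.82 ± 0.04, with MX1 at 414 and 397 CPM in parental, 143 and 143 CPM in the labelled knockout with DMSO and 906 and 908 CPM in treated cells. IFIT2, which binds viral RNA, showed another course: it was at 188 and 186 CPM in parental and 178 and 183 CPM in the labelled knockout with DMSO, and at 614 and 604 CPM with the inhibitor. RSAD2, also called viperin, and HERC5, a ligase for ISG15, likewise lay near or above parental with DMSO alone and reached 1.80 ± 0.07 and 1.34 ± 0.07 above it. The smallest called differences were those of TRIM25, at 0.21 ± 0.03, and of ZC3HAV1, at 0.10 ± 0.04. The members not called were IFITM2, at -0.12 ± 0.06, and ISG15, counted at 2.04 and 1.56 CPM in parental and 2.11 and 1.08 CPM in treated cells against 130 CPM in the untreated Cal27 library. Nucleic acid sensors were higher in 9 of 13 cases and lower in 2, with a median of 0.38. The RNA sensor RIG-I, listed under its older symbol DDX58, differed by 0.60 ± 0.04, DHX58 by 0.94 ± 0.08 and the Z-form nucleic acid sensor ZBP1 by 2.45 ± 0.24. The DNA sensor CGAS was lower, at -0.39 ± 0.07, as was the adaptor MAVS, at -0.10 ± 0.04. IFIH1 was not called, at 0.33 ± 0.22, and had 5.91 and 4.08 CPM in parental cells against 54.8 CPM in the untreated Cal27 library. Of 6 guanylate-binding proteins, GTPases that attack vacuoles of intracellular microbes, GBP1 to GBP5 were higher, from 0.48 ± 0.07 for GBP3 to 1.45 ± 0.17 for GBP5, and GBP6 was lower, at -1.10 ± 0.11.

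The core of an interferon response element, GAAA and GAAA with 2 bases of any kind between them, was searched on both strands in RefSeq promoter windows (GRCh38.p14, 250 bases before to 50 after the start) of 10299 tested genes, 1 window per gene. It occurred in 2.92% of all windows, in 25 of 37 windows of the antiviral list (67.6%), in 9 of 16 of MHC class I presentation (56.2%), and in none of the 13 windows of the mucosal defence and mucin lists. Among genes called 2-fold or more higher the share was 5.34%, and among those 2-fold or more lower it was 1.57%. A match is a description of the letters in the window and not a site of binding. The 250 bases before the start of IFI6 at chr1:27672193-27672442 (minus strand) and of CXCL10 at chr4:76023498-76023747 (minus strand) are shown because both genes moved from below to above parental, with the matches in capitals, 3 in IFI6 and 1 in CXCL10.
IFI6: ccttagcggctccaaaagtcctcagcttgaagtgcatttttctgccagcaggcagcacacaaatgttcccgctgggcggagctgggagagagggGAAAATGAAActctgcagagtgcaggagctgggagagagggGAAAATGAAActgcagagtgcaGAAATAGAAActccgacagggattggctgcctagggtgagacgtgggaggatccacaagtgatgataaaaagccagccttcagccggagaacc
CXCL10: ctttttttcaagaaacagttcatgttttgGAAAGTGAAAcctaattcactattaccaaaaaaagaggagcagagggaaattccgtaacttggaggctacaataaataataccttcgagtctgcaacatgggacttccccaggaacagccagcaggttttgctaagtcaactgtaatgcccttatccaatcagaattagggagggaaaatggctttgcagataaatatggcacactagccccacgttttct

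Antigen presentation on MHC class I was higher at nearly every step. Of 20 tested members 19 were called higher and none lower, with a median of 0.55, against -0.01 in the labelled knockout with DMSO. The median of all 672 tested genes of chromosome 6, where the HLA genes lie, was 0.1. The heavy chain gene HLA-B stood at 360 and 358 CPM in parental, 370 and 365 CPM in the labelled knockout with DMSO and 1223 and 1239 CPM in treated cells. The levels of both DMSO groups lay side by side, and the treated level was higher by 1.78 ± 0.03 (edgeR, adjusted p = 2.7e-18). The single untreated libraries of Cal27 and of the labelled knockout held 193 and 681 CPM of HLA-B. They held 870 and 1228 CPM of B2M and 195 and 201 CPM of HLA-E. For HLA-B the lines thus lay apart in that set without the inhibitor. B2M, the shared light chain on chromosome 15, followed with 1419 and 1416 CPM in parental, 1399 and 1427 CPM in the labelled knockout with DMSO and 2610 and 2556 CPM in treated cells, a difference of 0.87 ± 0.02. HLA-C differed by 0.97 ± 0.02, HLA-E by 0.66 ± 0.03 and HLA-F by 1.36 ± 0.05. The peptide transporter TAP1 was at 195 and 195 CPM in parental and 287 and 302 CPM in treated cells, and TAP2 differed by 0.29 ± 0.03. The transactivator NLRC5, which switches on this set of genes, differed by 0.78 ± 0.08, the immunoproteasome subunits PSMB8 and PSMB9 by 0.42 ± 0.04 and 0.55 ± 0.05, and the trimming peptidases ERAP1 and ERAP2 by 0.48 ± 0.05 and 0.38 ± 0.04. The proteasome activator PSME2 was the member not called, at 0.06 ± 0.04. The 250 bases before the start of B2M, at chr15:44711267-44711516 (plus strand), are shown because this window holds a pair of overlapping matches to the interferon element and, next to them, a match to a kappaB motif (GGG, then 2 bases of any kind, then TTTCC), all in capitals.
B2M: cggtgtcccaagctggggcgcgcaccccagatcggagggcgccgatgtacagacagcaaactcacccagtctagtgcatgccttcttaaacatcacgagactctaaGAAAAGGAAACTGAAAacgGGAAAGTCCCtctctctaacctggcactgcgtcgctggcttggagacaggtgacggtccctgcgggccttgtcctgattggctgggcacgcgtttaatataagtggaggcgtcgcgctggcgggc

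MHC class II genes, which present peptides to CD4+ T cells, were above the parental level in 9 of 12 cases and below in 1, with a median of 0.51. The labelled knockout with DMSO stood at -1.75 on the same measure. HLA-DRA was at 139 and 140 CPM in parental, 46.2 and 46.2 CPM in the labelled knockout with DMSO and 195 and 201 CPM in treated cells, a difference of 0.51 ± 0.04 (edgeR, adjusted p = 5.6e-09). HLA-DPA1 differed by 1.07 ± 0.10, HLA-DMA, which loads peptide, by 0.51 ± 0.08 and the invariant chain CD74 by 0.30 ± 0.03. HLA-DQA1 and HLA-DQB1 were not called, at -0.08 ± 0.05 and -0.21 ± 0.23. CIITA, the master regulator of these genes, did not follow them: it stood at 35.8 and 33.5 CPM in parental, 21.2 and 22.1 CPM in the labelled knockout with DMSO and 25.3 and 27 CPM in treated cells, lower than parental, at -0.40 ± 0.08 (adjusted p = 0.00039).

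Chemokines were above parental for both T cells and neutrophils. Of 6 tested genes that attract T cells 5 were higher, with a median of 0.51, and CCL5 was not called, at 0.54 ± 0.34. CXCL10 was at 23.2 and 24.3 CPM in parental, 12.6 and 12 CPM in the labelled knockout with DMSO and 94.1 and 105 CPM in treated cells, a difference of 2.07 ± 0.07 (edgeR, adjusted p = 1.6e-13). CXCL11, another ligand of CXCR3, reached the same distance, 2.08 ± 0.08, from 17.8 and 18.2 CPM in parental cells. CCL2, which attracts monocytes, and the membrane chemokine CXCL16 differed less, by 0.47 ± 0.03 and 0.36 ± 0.04. All 6 tested chemokines of the neutrophil list were higher, with a median of 1.46. CXCL8 was at 353 and 374 CPM in parental, 464 and 476 CPM in the labelled knockout with DMSO and 778 and 799 CPM in treated cells, and CCL20, which attracts cells with CCR6, at 65.9 and 66.0 CPM, 29.4 and 27.5 CPM and 175 and 175 CPM in the same order. The difference from parental was 1.12 ± 0.03 for CXCL8 and 1.41 ± 0.04 for CCL20. CCL20 was below parental with DMSO alone and CXCL8 above it. The untreated Cal27 library held 38.9 CPM of CXCL8 and 7.21 CPM of CCL20, more than 8-fold below Cal27 with DMSO. CXCL5 was at 0.219 and 0.296 CPM in parental, 0 and 0.144 CPM in the labelled knockout with DMSO and 3.71 and 1.84 CPM in treated cells, the largest difference of the list. It passed the low-count filter only through the treated libraries. CXCL1, CXCL2 and CXCL3, which are close copies of one another, differed by 0.74 ± 0.03, 1.51 ± 0.08 and 1.99 ± 0.12. The CXCL genes named here, CXCL16 apart, lie on chromosome 4, where the median of 465 tested genes was 0.184 above parental in treated cells and 0.212 in the labelled knockout with DMSO, and the part of that shift in their values was not tested. The kappaB motif, searched in the same way, occurred in 5 of 6 windows of the neutrophil list (83.3%) and in 6 of 16 windows of the NF-kappaB list (37.5%), against 2.18% of all windows. CXCL2 at chr4:74099196-74099445 (minus strand) and CCL20 at chr2:227813592-227813841 (plus strand) are shown as examples, each with its match in capitals.
CXCL2: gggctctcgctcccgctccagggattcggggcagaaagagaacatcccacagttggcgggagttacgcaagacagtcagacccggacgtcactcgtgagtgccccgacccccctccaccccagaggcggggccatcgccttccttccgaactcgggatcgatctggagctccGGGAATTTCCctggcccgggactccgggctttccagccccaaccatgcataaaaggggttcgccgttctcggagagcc
CCL20: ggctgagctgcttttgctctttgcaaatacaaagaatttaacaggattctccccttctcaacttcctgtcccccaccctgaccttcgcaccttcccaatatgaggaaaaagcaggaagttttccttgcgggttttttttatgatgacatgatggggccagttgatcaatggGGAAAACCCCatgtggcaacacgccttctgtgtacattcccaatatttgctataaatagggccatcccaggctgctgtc

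**Figure D3:**
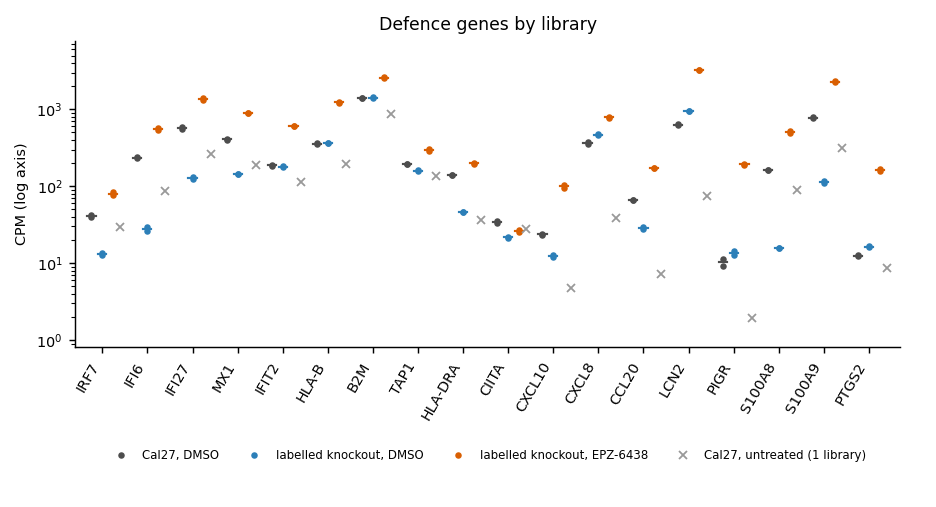
CPM of defence genes in each library (vertical axis, log scale) in dark grey for parental cells, blue for DMSO-treated and orange for EPZ-6438-treated cells of the labelled knockout, 2 points per group with a bar at their mean, and 1 cross for the untreated Cal27 library. For each gene apart from CIITA the treated points are the highest of the 3 groups, and for IRF7, IFI6, MX1, HLA-DRA, S100A8 and S100A9 the labelled knockout with DMSO lies below parental.

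Upstream inflammatory genes were more mixed. Of 10 tested genes of the IL-1 and IL-36 family 4 were higher and 2 lower. IL1A and IL1B, released alarm cytokines, differed by 0.90 ± 0.02 and 0.77 ± 0.03, and in both cases the labelled knockout with DMSO already stood above parental. IL1A was at 461 and 461 CPM in parental and 857 and 863 CPM in treated cells against 50 CPM in the untreated Cal27 library. The antagonist IL1RN was higher by 1.01 ± 0.13, and IL18 was lower, at -0.88 ± 0.15. Of 19 NF-kappaB subunits and feedback genes 14 were higher and 1 lower, with a median of 0.32. The feedback genes NFKBIZ, TNFAIP3 and NFKBIA differed by 0.97 ± 0.05, 0.44 ± 0.03 and 0.42 ± 0.03, NFKB1 by 0.43 ± 0.05 and RELA by 0.13 ± 0.04. The TNF family had 11 of 18 members higher and 2 lower, with a median of 0.83. TNFSF10, the death ligand TRAIL, was at 145 and 152 CPM in parental, 77.5 and 78.0 CPM in the labelled knockout with DMSO and 295 and 290 CPM in treated cells, while its receptor TNFRSF10B was lower, at -0.19 ± 0.04. The costimulatory ligand CD70 went from 3.65 and 4.08 CPM to 26.9 and 28.6 CPM, and the receptor CD40 from 8.68 and 9.49 CPM to 31.2 and 30.4 CPM. TNFSF13B, the B-cell survival factor BAFF, differed by 3.34 ± 0.54. Among immune checkpoint genes 9 of 11 were higher and none lower, with a median of 0.69. CD274, which encodes PD-L1, was among the smallest, at 11.2 and 10.4 CPM in parental and 13.5 and 13.2 CPM in treated cells, a difference of 0.31 ± 0.12 (edgeR, adjusted p = 0.036). Leaving out any of the 4 compared libraries ended that call, with adjusted p of 0.06 and 0.17 without parental replicate 1 and 2 and 0.1 and 0.089 without treated replicate 1 and 2. IDO1, which breaks down tryptophan, was the largest, at 8.39 and 9.86 CPM in parental, 6.85 and 5.11 CPM in the labelled knockout with DMSO and 89.7 and 91.1 CPM in treated cells.

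Complement, prostaglandin and S100 genes divided by member. Of 16 complement genes 12 were higher and 2 lower, with a median of 0.98. The factor CFB, which builds the alternative pathway convertase, was at 206 and 199 CPM in parental, 162 and 165 CPM in the labelled knockout with DMSO and 776 and 777 CPM in treated cells, and C3, the protein it activates, differed by 0.79 ± 0.02. The inhibitor SERPING1 was at 1.31 and 0.593 CPM, 0.154 and 0.0720 CPM and 5.39 and 5.41 CPM in the same order, and so moved from below to above parental. The classical pathway protease C1S differed by 1.24 ± 0.04, and the surface inhibitors CD55 and CD46 by 1.17 ± 0.06 and 0.48 ± 0.03, while the inhibitor CD59 was lower, at -0.16 ± 0.03. Of 9 genes of prostaglandin synthesis and signalling 3 were higher, 2 lower and 4 not called, about as in all tested genes (26.1% higher, 25.9% lower). PTGS2, which encodes COX-2, was at 12.3 and 12.7 CPM in parental, 16.2 and 16.5 CPM in the labelled knockout with DMSO and 168 and 156 CPM in treated cells, and the synthase PTGES at 57.6 and 59.7 CPM, 35.0 and 33.0 CPM and 241 and 240 CPM in the same order. The differences were 3.70 ± 0.08 and 2.03 ± 0.04. The remaining member higher was HPGD, which breaks prostaglandins down, by 1.51 ± 0.41. The constitutive PTGS1 was not called, at -0.47 ± 0.22, and the synthases PTGES3 and PTGES2 were lower, at -0.24 ± 0.03 and -0.11 ± 0.04. Of 14 S100 genes 5 were higher and 7 lower, so that the list median of -0.06 described neither set. The members higher were the antimicrobial ones: S100A8 was at 161 and 165 CPM in parental, 15.8 and 15.8 CPM in the labelled knockout with DMSO and 496 and 517 CPM in treated cells, and S100A9, its partner in calprotectin, at 776 and 786 CPM, 117 and 109 CPM and 2284 and 2306 CPM in the same order. S100A7, S100A7A and S100A12 differed by 1.35 ± 0.04, 2.67 ± 0.11 and 0.92 ± 0.32. Of the other 9 members 7 were lower and 2 were not called. Among those lower were S100A14 at -1.21 ± 0.06, S100A10, the partner of annexin A2, at -0.79 ± 0.03 and S100A2 at -0.53 ± 0.03.

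Squamous keratins stayed far below the parental level. Of 8 tested basal and stress keratins 7 were lower and none higher, with a median of -1.81, beside -1.90 in the labelled knockout with DMSO. KRT14 was at 1322 and 1308 CPM in parental, 185 and 194 CPM in the labelled knockout with DMSO and 112 and 116 CPM in treated cells, and its partner KRT5 at 4028 and 3960 CPM, 1882 and 1956 CPM and 861 and 877 CPM in the same order. Both stood lowest in the treated cells, with differences from parental of -3.52 ± 0.03 and -2.20 ± 0.02 (edgeR, adjusted p = 1.3e-20 and 1.1e-19). The untreated Cal27 library held 6803 CPM of KRT14 and 11341 CPM of KRT5, so their parental level was itself lower with DMSO. KRT17 and KRT6A, keratins of injured epithelium, were at 985 and 963 CPM and 761 and 755 CPM in parental and 310 and 323 CPM and 184 and 195 CPM in treated cells, close to the 268 and 285 CPM and 161 and 174 CPM of the labelled knockout with DMSO. Untreated Cal27 held more of both, 1742 CPM of KRT17 and 3034 CPM of KRT6A. KRT15 differed by -1.42 ± 0.04, KRT6B by -0.47 ± 0.07, and KRT6C was not called. KRT16 was lower, at -2.65 ± 0.17, with 24.5 and 20.8 CPM in parental cells against 215 CPM in the untreated Cal27 library. The simple keratins KRT18, KRT8 and KRT7 were slightly to moderately higher, by 0.41 ± 0.03, 0.32 ± 0.03 and 1.18 ± 0.12, and KRT23 by 3.25 ± 0.75. KRT19 was not called.

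Genes of the upper squamous layers were lower in 8 of 14 cases and higher in 3, with a median of -0.92. The cornified envelope precursor SPRR1B was at 7.59 and 7.86 CPM in parental, 0.308 and 0.792 CPM in the labelled knockout with DMSO and 0.674 and 0.445 CPM in treated cells, and the suprabasal keratin KRT13 at 6.42 and 6.67 CPM, 1.16 and 0.792 CPM and 0.421 and 0.636 CPM in the same order. Their differences were -3.80 ± 0.41 and -3.57 ± 0.39, but the untreated Cal27 library held 124 CPM and 220 CPM, so the parental level of both was itself low with DMSO. SCEL and KRT80 were instead higher, by 1.72 ± 0.12 and 0.97 ± 0.03, and the plakin PPL was not called, at -0.01 ± 0.04. LY6D, a surface protein of squamous cells, was at 224 and 211 CPM in parental, 24.9 and 25.1 CPM in the labelled knockout with DMSO and 25.3 and 26.9 CPM in treated cells. Untreated Cal27 held 875 CPM of LY6D. The AP-1 letters TGANTCA, searched in the same way, occurred in 5 of 8 windows of this list (62.5%) against 4.73% of all windows, and in 9.39% and 9.42% of windows of genes 2-fold or more higher and lower. The 250 bases before SPRR1B at chr1:153030953-153031202 (plus strand) hold a pair of such matches, in capitals.
SPRR1B: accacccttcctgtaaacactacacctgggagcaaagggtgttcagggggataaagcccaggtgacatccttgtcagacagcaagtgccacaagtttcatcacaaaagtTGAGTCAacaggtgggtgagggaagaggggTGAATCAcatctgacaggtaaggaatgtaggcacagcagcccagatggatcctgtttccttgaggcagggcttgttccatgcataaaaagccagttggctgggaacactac

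Of 21 transcription factors of epithelial lineages 8 were higher and 6 lower, not far from the 26.1% and 25.9% of all tested genes. TP63, the squamous master factor, was at 522 and 543 CPM in parental, 412 and 413 CPM in the labelled knockout with DMSO and 329 and 318 CPM in treated cells, lower than parental, at -0.72 ± 0.03 (edgeR, adjusted p = 3.1e-12). SOX2 and ZNF750, which act with it in squamous cells, were lower, at -0.86 ± 0.14 and -1.0 ± 0.19, although both stood above the labelled knockout with DMSO. EHF and ELF3, factors of the ETS family in epithelium, were higher by 0.62 ± 0.03 and 0.51 ± 0.06, and GRHL1 and KLF4 were not called. Of 14 genes of desmosomes and adherens junctions 11 were lower and 2 higher, with a median of -0.35. The plakophilin PKP1 was at 102 and 102 CPM in parental, 13.9 and 11.4 CPM in the labelled knockout with DMSO and 15.1 and 17.2 CPM in treated cells. Untreated Cal27 held 669 CPM of PKP1. The desmosomal cadherins DSG3 and DSC3 were lower, at -0.95 ± 0.07 and -0.97 ± 0.06, desmoplakin DSP at -0.42 ± 0.03 and E-cadherin CDH1 at -0.48 ± 0.03. CDH1 was at 330 and 339 CPM in the labelled knockout with DMSO, level with 325 and 337 CPM in parental cells. Tight junction genes leaned the other way, 8 higher and 3 lower of 14, among them TJP3 by 1.98 ± 0.14, CLDN7 by 0.83 ± 0.07 and CLDN4 by 0.53 ± 0.05, with CLDN1 lower, at -0.29 ± 0.03.

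**Figure D4:**
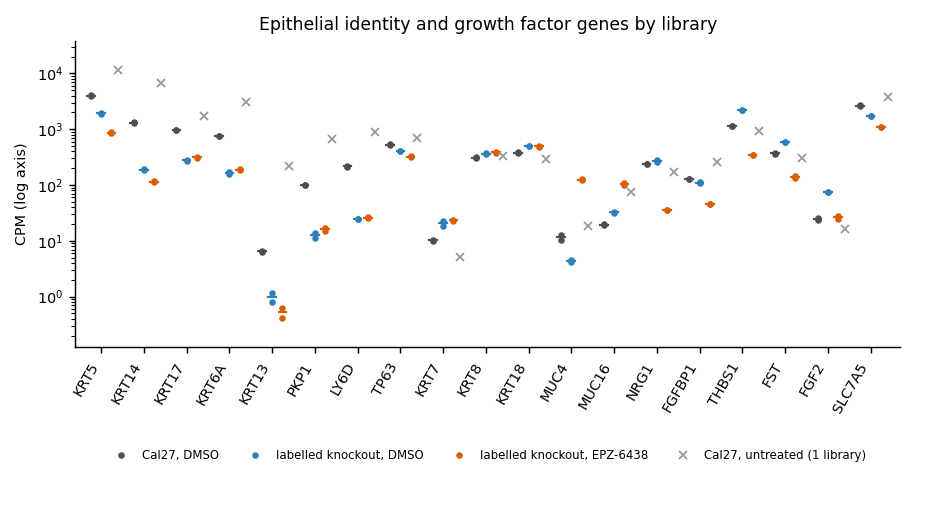
CPM of epithelial identity and growth factor genes in each library (vertical axis, log scale) for the 3 groups, 2 points per group with a bar at their mean, and 1 cross for the untreated Cal27 library. KRT5, KRT14, KRT13, PKP1 and LY6D lie below parental in both labelled knockout groups, MUC4 and MUC16 are highest with EPZ-6438, and THBS1, FST and FGF2 are highest in the labelled knockout with DMSO.

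Adhesion and matrix genes changed member by member. Of 20 integrin, laminin and hemidesmosome genes 11 were higher and 6 lower, with a median of 0.26. For 13 of the 20 the interval lay within 0.5 log2 of parental. ITGA1, a collagen receptor chain with the largest difference of the list, was at 6.78 and 6.52 CPM in parental, 3.47 and 2.81 CPM in the labelled knockout with DMSO and 65.1 and 63.3 CPM in treated cells, and ITGB2, ITGB5 and ITGA2 were higher by 1.74 ± 0.20, 1.16 ± 0.08 and 1.07 ± 0.04. ITGA6 and ITGB4, which together anchor basal cells to the basement membrane, were lower, at -0.43 ± 0.03 and -0.41 ± 0.03. Of 25 mesenchymal and matrix genes 11 were higher and 8 lower, beside 26.1% and 25.9% of all tested genes. Fibronectin FN1 was at 158 and 154 CPM in parental, 282 and 283 CPM in the labelled knockout with DMSO and 423 and 439 CPM in treated cells, and tenascin TNC differed by 0.52 ± 0.02. Thrombospondin THBS1 moved the other way, with 1159 and 1154 CPM in parental, 2192 and 2186 CPM in the labelled knockout with DMSO and 339 and 339 CPM in treated cells. Its level was thus above parental with DMSO alone and below it with the inhibitor, at -1.77 ± 0.02 (edgeR, adjusted p = 1.7e-18). Markers of mesenchymal state disagreed in direction: vimentin VIM, CDH2 and SNAI2 were lower, at -2.12 ± 0.43, -0.71 ± 0.11 and -0.61 ± 0.07, and TWIST1 was higher by 0.98 ± 0.21. Of the fibroblast collagens, COL3A1 and COL1A2 were higher, as given above, and COL1A1 was not called, at -0.39 ± 0.16. Of 15 matrix proteases and inhibitors 7 were higher and 3 lower, with a median of 0.27 beside -1.26 in the labelled knockout with DMSO. The plasminogen activator PLAT was higher by 1.39 ± 0.03 and the inhibitors TIMP1 and TIMP2 by 1.69 ± 0.09 and 1.25 ± 0.05. TIMP3 and the collagenase MMP13 were lower: TIMP3 was at 9.85 and 11 CPM in parental, 0.0770 and 0.144 CPM in the labelled knockout with DMSO and 1.18 and 1.08 CPM in treated cells, and MMP13 at 97.4 and 95.5 CPM, 5.85 and 6.77 CPM and 23.8 and 22.8 CPM in the same order.

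Growth factor genes included higher ERK pathway genes beside lower NRG1. Of 18 genes of ERK pathway output 14 were higher and 1 lower, with a median of 0.67, beside 0.56 in the labelled knockout with DMSO. The ERK phosphatase DUSP4 was at 43.8 and 46.2 CPM in parental, 83.9 and 80.3 CPM in the labelled knockout with DMSO and 176 and 172 CPM in treated cells, and DUSP6 and the ETS factors ETV1 and ETV5 differed by 1.01 ± 0.09, 3.29 ± 0.22 and 1.74 ± 0.15. CCND1 was the member lower, at -0.17 ± 0.03, and FOSL1 and EPHA2 were not called. Of 11 EGF family genes 8 were higher and 2 lower. The ligands EREG and HBEGF differed by 1.01 ± 0.08 and 1.47 ± 0.07, and the receptor EGFR was lower, at -0.33 ± 0.02. NRG1, a ligand of ERBB3, was at 240 and 235 CPM in parental, 278 and 258 CPM in the labelled knockout with DMSO and 35.2 and 35.7 CPM in treated cells, a difference of -2.74 ± 0.06 (edgeR, adjusted p = 5.6e-17). FGFBP1, a carrier that releases FGFs from matrix, was lower, at -1.49 ± 0.05. FGF2 itself was not called, with 23.4 and 25.6 CPM in parental, 76.3 and 75.3 CPM in the labelled knockout with DMSO and 27.7 and 24.8 CPM in treated cells, and a 95% interval of the difference of -0.08 to 0.27. Of 15 YAP/TEAD targets 7 were higher and 4 lower. AXL also lay level with parental, at 88.5 and 87.4 CPM, 177 and 172 CPM and 87.6 and 91.9 CPM in the same order, while NT5E stayed higher by 1.30 ± 0.05 and F3 was lower, at -0.65 ± 0.03. In the BMP, activin and TGF-beta list 9 of 18 were higher and 5 lower: the activin antagonist FST was at 367 and 370 CPM in parental, 590 and 585 CPM in the labelled knockout with DMSO and 135 and 148 CPM in treated cells, BMP7 stayed low, at -2.55 ± 0.21, and the BMP targets ID1 and ID3 were lower, at -0.32 ± 0.05 and -0.49 ± 0.07.

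**Figure D5:**
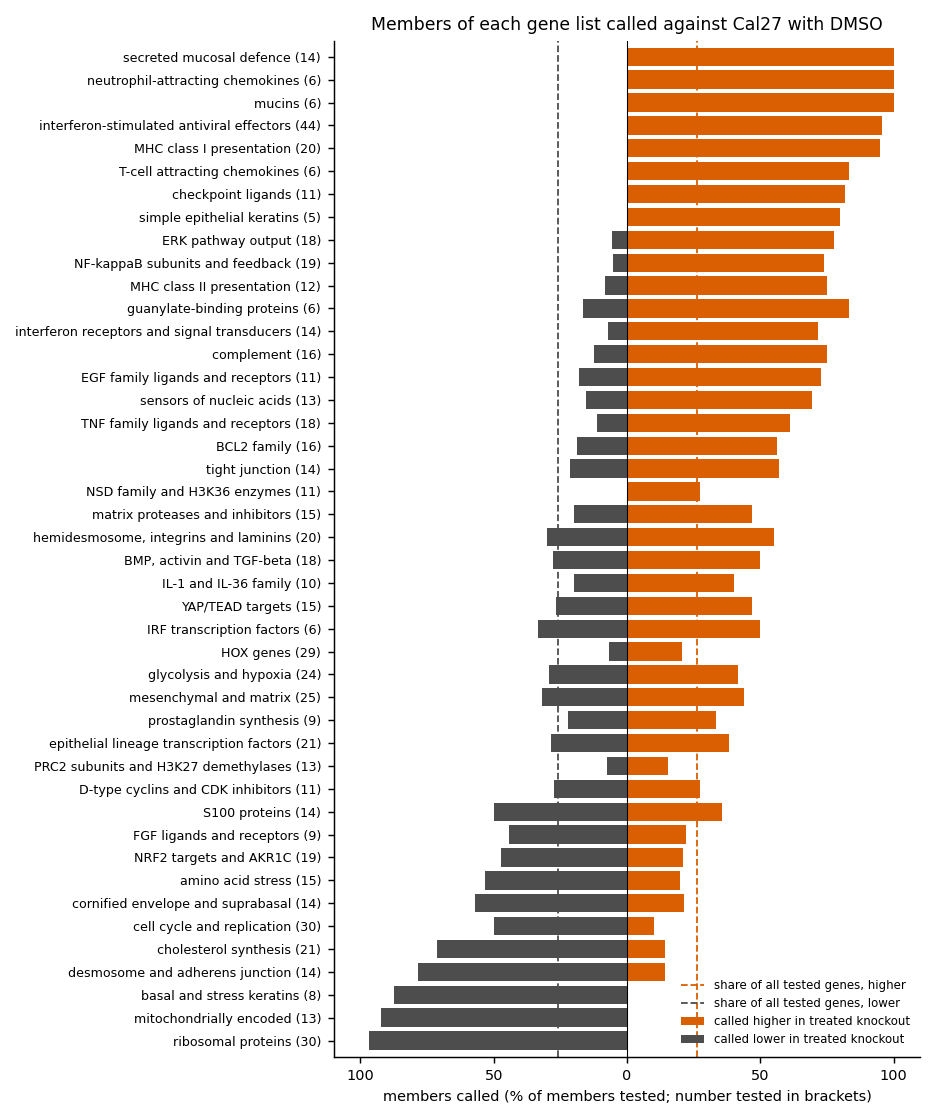
Share of tested members called higher (right, orange) or lower (left, grey) than parental Cal27 in the treated labelled knockout, for 44 gene lists with the number tested in brackets. Broken lines give the shares over all tested genes, 26.1% higher and 25.9% lower. Mucosal defence, mucins and neutrophil chemokines reach 100% higher, and ribosomal proteins, mitochondrially encoded genes and basal keratins lie furthest to the left. Some members, such as DMBT1 and CXCL5, passed the low-count filter only through the treated libraries.

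Genes of proliferation lay near the parental level. Of 30 cell cycle and replication genes, 27 had an interval within 0.5 log2 of parental, and 15 were called lower and 3 higher, with a median of -0.09. MKI67 was at 569 and 575 CPM in parental and 610 and 573 CPM in treated cells, with an interval of -0.02 to 0.11. The lower members were mostly those of mitosis, such as CDC20 at -0.56 ± 0.03 and PLK1 at -0.41 ± 0.04, although MCM4 and PCNA of DNA replication were lower too. Of 11 D-type cyclins, their kinases and CDK inhibitors 3 were higher and 3 lower, near the 26.1% and 25.9% of all tested genes. The CDK inhibitors CDKN1A and CDKN1B were higher by 0.44 ± 0.07 and 0.46 ± 0.07, and CDK6 was lower, at -0.38 ± 0.04. CCND2 was higher by 1.03 ± 0.05, at 97.4 and 99.2 CPM in treated and 48.9 and 47.7 CPM in parental cells, against 2.29 CPM in the untreated Cal27 library. In the BCL2 family 9 of 16 were higher and 3 lower, and the higher ones included both killers and protectors. The death-promoting BMF was at 4.08 and 3.63 CPM in parental, 3.08 and 4.03 CPM in the labelled knockout with DMSO and 23.8 and 20.9 CPM in treated cells, BCL2L11 differed by 0.74 ± 0.08, and BCL2 itself by 0.86 ± 0.28. MCL1 was not called, at 0.01 ± 0.03.

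Genes of the ribosome were slightly below parental. Of 30 ribosomal protein genes 29 were lower and none higher, with a median of -0.33, and 26 had an interval within 0.5 log2 of parental. Of 13 mitochondrially encoded genes 12 were lower, with a median of -0.39. The largest ribosomal difference was that of RPS2, at -0.63 ± 0.02. In the amino acid stress list 8 of 15 were lower, 3 higher and 4 not called. The amino acid exchanger SLC7A5 was at 2699 and 2624 CPM in parental, 1742 and 1741 CPM in the labelled knockout with DMSO and 1096 and 1106 CPM in treated cells, and its heavy chain SLC3A2 differed by -1.19 ± 0.03. The serine synthesis enzyme PSAT1 and asparagine synthetase ASNS were lower, at -0.94 ± 0.03 and -0.76 ± 0.05, both level with parental with DMSO alone. The cystine transporter SLC7A11 was lower, at -1.06 ± 0.07, while TXNRD1, another NRF2 target, was higher by 0.63 ± 0.03. In cholesterol synthesis 15 of 21 genes were lower and 3 higher, with a median of -0.18, led by HMGCS1, at -0.82 ± 0.04. Glycolysis and hypoxia genes went both ways, 10 higher and 7 lower of 24, beside 26.1% and 25.9% of all tested genes. CA9 was higher by 1.31 ± 0.06, and NDRG1 was lower, at 464 and 452 CPM in parental, 45.7 and 47.9 CPM in the labelled knockout with DMSO and 133 and 139 CPM in treated cells.

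The drug target and its complex were near the parental level. Of 13 PRC2 subunits and H3K27 demethylases 11 had an interval within 0.5 log2, 2 were higher and 1 lower. EZH2 was at 54.0 and 57.7 CPM in parental, 61.3 and 62.0 CPM in the labelled knockout with DMSO and 58.4 and 63.7 CPM in treated cells, a difference of 0.13 ± 0.06 that was not called (edgeR, adjusted p = 0.073). Without treated replicate 1 it was called, at 0.19 (edgeR, adjusted p = 0.027). JARID2 was higher by 0.23 ± 0.07, a call lost without parental replicate 1 (0.17, adjusted p = 0.13) or treated replicate 2 (0.22, adjusted p = 0.06) in edgeR. PHF1 was higher by 0.53 ± 0.11 and the demethylase KDM6A was lower, at -0.38 ± 0.08. Of 29 HOX genes, classical PRC2 targets in development, 6 were higher, 2 lower and 21 not called, with a median of 0.31. The share called higher was thus below the 26.1% of all tested genes. The list summed to 189 CPM in each parental library, and 4 of the 29 had an interval within 0.5 log2. A missing call therefore does not show a parental level for most of them. Against the labelled knockout with DMSO, the list median in treated cells was 0.45, beside 0.003 over all tested genes, as a description without a test. HOXC10 and HOXD9 were the members lower, at -0.59 ± 0.15 and -0.43 ± 0.11, and the HOXD9 call was lost in edgeR without treated replicate 2 (-0.33, adjusted p = 0.054). HOXA3 was at 18.2 and 14.8 CPM in parental and 25.2 and 23.8 CPM in treated cells. Of 24 cancer-testis genes 21 were too low to test, and the tested MAGEA3, MAGEA4 and MAGEA6 were not called, each within 0.5 log2 of parental. Counts per gene do not show whether H3K27 methylation changed at any of these genes, and the chromatin libraries of the series were not analysed here.

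A small set of genes was picked for a treated level near the parental one. Among protein-coding genes at least 4-fold apart between the labelled knockout with DMSO and parental cells, the 8 nearest to parental after treatment are given as a description. Nearness to parental was the condition of the choice and is not a result. How many such genes stayed away from parental is not given here. TYMP, thymidine phosphorylase, was at 102 and 102 CPM in parental, 24.9 and 21.2 CPM in the labelled knockout with DMSO and 107 and 109 CPM in treated cells, and its treated minus parental interval was -0.02 to 0.19. S1PR3, a receptor for sphingosine phosphate, was at 12.1 and 13.3 CPM, 1.31 and 1.15 CPM and 13.4 and 10.8 CPM in the same order. The matrix protein CCN3 stood at 10.6 and 10.3 CPM, 2.16 and 1.51 CPM and 10.2 and 11.1 CPM, and the guanine nucleotide exchange factor FGD1 at 5.76 and 5.48 CPM, 1.23 and 1.37 CPM and 4.97 and 5.47 CPM. PKIG, MSRB3, PCOLCE2 and MAPK8IP2 completed the set. Each of the 8 had been lower in the labelled knockout with DMSO.

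Among the 15 largest differences upward, several genes were almost silent in both DMSO groups. ZDHHC2, a palmitoyltransferase, was at 0.511 and 0.889 CPM in parental, 3.16 and 3.17 CPM in the labelled knockout with DMSO and 63.6 and 62.0 CPM in treated cells. CYP24A1, which breaks down active vitamin D, was at 1.46 and 1.93 CPM, 3.39 and 2.30 CPM and 51.7 and 51.6 CPM in the same order, and the phosphatase PPM1H at 1.31 and 1.56 CPM, 1.08 and 1.58 CPM and 25.0 and 24.9 CPM. FBLN5, a protein of elastic fibres, had 1 count in the parental and 173 in the treated pair, a ratio of 171 with a 95% counting interval of 30.3 to 6790. C4orf19, SLAIN1, GPR141, EBI3, MERTK and RBPMS were also among them, beside FCGBP, DMBT1, PIGR and OLFM4, from 4.01 ± 0.42 for RBPMS to 5.51 ± 0.49 for C4orf19. MERTK, a receptor that takes part in the uptake of dying cells, was partly raised with DMSO alone, at 3.54 and 3.38 CPM against 0.511 and 0.296 CPM in parental cells. In all these cases the treated libraries also lay above both libraries of the labelled knockout with DMSO. The choice used the same treated libraries, and some genes, such as FBLN5, passed the low-count filter only through them. Both favour this order, so it is a description without a test. Separation from the parental libraries was a condition of the choice and is not a result.

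Each of the 15 genes with the largest differences downward also lay below parental in the labelled knockout with DMSO. They were chosen on the same parental libraries that enter both comparisons, which favours such agreement, so it is a description without a test. NUP210, a nuclear pore protein, was at 23.6 and 22.5 CPM in parental, 0.308 and 0.216 CPM in the labelled knockout with DMSO and 0.759 and 0.573 CPM in treated cells. The transcription factor KLF13 was at 56.4 and 54.8 CPM, 5.54 and 5.40 CPM and 3.62 and 3.94 CPM in the same order, MAGED1 at 9.34 and 9.86 CPM, 0.462 and 0.144 CPM and 0.421 and 0.318 CPM, and the sialyltransferase ST6GAL1 at 8.24 and 9.12 CPM, 0.308 and 0.576 CPM and 1.35 and 0.891 CPM. SNRPN, which shares its locus with overlapping transcripts, had 204 counts in the parental and 3 in the treated pair, a ratio of 68.8 with a 95% counting interval of 23.2 to 336. Beside SPRR1B, KRT13, KRT14, TIMP3 and LY6D, the others were SESN3, IRX1, BCL11B, NEFL and the peptidase KLK8, from -3.63 ± 0.23 for SESN3 to -2.92 ± 0.16 for KLK8. A different course was seen in CAV1, the coat protein of caveolae, which was at 2456 and 2530 CPM in parental and 2106 and 2124 CPM in the labelled knockout with DMSO but at 802 and 799 CPM in treated cells, lower than parental, at -1.64 ± 0.02 (edgeR, adjusted p = 2.7e-18). SOD2, the mitochondrial superoxide dismutase and a known NF-kappaB target, was its counterpart upward, at 1141 and 1182 CPM, 1373 and 1352 CPM and 2880 and 2814 CPM in the same order.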

How the data were processed

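Total RNA was extracted with TRIzol and depleted of ribosomal RNA, per the labels' protocols. Per the submitters' processing notes, CASAVA 1.7, HISAT2 2.1.0, Picard 2.23.1, featureCounts 1.6.1 and the build hg38 were used, and no source used here gives the annotation or the strand setting. The authors deposited one table of raw read counts per gene, which was used as deposited. From it, 6 libraries in 3 groups of 2 were fitted with edgeR 4.0.16 in R 4.3.3 (filterByExpr, TMM scaling, quasi-likelihood test, group as the one term), with Benjamini-Hochberg adjustment over 13241 genes. DESeq2 1.42.0 served as an alternative, and the steps were tested on simulated counts. CPM are counts per 1000000 after that scaling, and those of untreated libraries were scaled over all 10 libraries. At these depths the median SE of a log2 difference was 0.0845. Gene rows were matched to RefSeq names, 26967 through the current and 488 through a former symbol, and 7041 had no match. Of 862 list entries 858 matched a row.

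The genes named were the 15 largest called differences each way among protein-coding genes with at least 5 CPM in the higher group. For these 15, the treated and parental libraries also had to be free of overlap. Added to them were the 8 with the most counts among those called at 2-fold or more each way. Also named were the 8 nearest to parental among genes at least 2 log2 units apart in the labelled knockout with DMSO. Each list gave up to 4 members with the lowest adjusted p, and lists of 6 or fewer gave all members. A fixed set of well-known genes was named as well. Members and lists were chosen with earlier results of these data known. Some further list members were added after their values were seen. Counting intervals are exact at 95% and, like the floor of 3 counts, cover counting error only. The alternatives were other scalings, filters and tests, a replicate block, and leaving out each library in turn. Some tested genes are not reported here.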

Additional observations from a re-analysis of the deposited data

How the results depend on the processing

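Of the genes called, 50.2% were higher. Over 14 of the 16 alternatives, all planned, this share was 49.9% to 51.6%. It was 58.8% with scaling by library size alone (4016 higher, 2815 lower) and 71.3% in the test against a log2 difference of 0.5 (1053 higher, 424 lower). DESeq2 gave 2662 higher and 2588 lower. Requiring at least 50 counts in 2 libraries reduced the genes tested to 11275 and those changed 2-fold or more to 541 higher and 173 lower. Leaving out 1 library at a time gave 2925 to 3412 genes higher and 2901 to 3375 lower. With the replicate number as a block, 3373 genes were higher and 3345 lower. Correlations of the deviations of same-numbered samples were 0.014, -0.0443 and 0.00347. These include the counting noise of weakly counted genes, so they cannot decide whether the numbers pair the samples. The median of the IRF list of 0.02 turned to -0.02 without parental replicate 2 and ranged up to 0.06 over the libraries left out, and that of the NRF2 target list of -0.08 turned to 0.04 without treated replicate 1 and ranged down to -0.15. The cause was not tested. None of the 3842 recomputed values of named genes changed direction while called, and 85 were no longer called. With 2 libraries per group, differences of genes under about 5 CPM have wide intervals.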

Other observations

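Enzymes of H3K36 methylation other than NSD1 were mostly near parental in the treated cells. Of 11 tested members of the list that includes NSD1, 3 were called higher, near the 26.1% of all tested genes, and none lower. Those higher were NSD1, its paralog NSD3 at 0.33 ± 0.05 and ASH1L at 0.20 ± 0.05. NSD2, the remaining paralog, stood at 133 and 126 CPM in parental, 169 and 168 CPM in the labelled knockout with DMSO and 138 and 135 CPM in treated libraries and was not called. SETD2, which places the third methyl group on H3K36, was not called either, at 0.11 ± 0.06.

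Of 9 tested members of the FGF signalling list 2 were higher and 4 lower, beside 26.1% and 25.9% of all tested genes. FGF7, usually a stromal factor for epithelium, was at 0.729 and 0.296 CPM in parental, 0.231 and 1.01 CPM in the labelled knockout with DMSO and 1.94 and 1.34 CPM in treated cells. SULF2, a sulfatase that trims heparan sulfate, was at 27.9 and 27.7 CPM in parental, 0.847 and 2.30 CPM in the labelled knockout with DMSO and 5.73 and 6.04 CPM in treated cells, and FGFR3 differed by -0.48 ± 0.06. FGF5 was higher by 2.29 ± 0.75, a call lost in edgeR without parental replicate 2 (1.58, adjusted p = 0.085) or treated replicate 2 (1.74, adjusted p = 0.11).

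Among EGF family ligands of low level, EGF, BTC and NRG2 were higher in treated than in parental cells by 3.68 ± 0.41, 2.25 ± 0.33 and 2.47 ± 0.87. BTC and NRG2 lay below parental in the labelled knockout with DMSO, and EGF above it.

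The share of genes called differed between chromosomes. On chromosome 4, 41.1% of 465 tested genes were higher in treated than in parental cells and 10.8% lower, with a median log2 difference of 0.184, beside 0.212 for the labelled knockout with DMSO. Between the untreated libraries of the labelled knockout and of Cal27, 1 each, that median was 0.053. On chromosome 21, 41.6% of 125 genes were higher, with medians of 0.178 and 0.131, and 0.089 between the untreated libraries. Chromosome 16 had 34.5% of 608 genes lower and chromosome 22 had 33.0% of 318 lower, with medians of -0.099 and -0.086. These values are descriptions of 1 labelled knockout line, and copy number was not measured here.

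HRK, a death-promoting member of the BCL2 family, had 3 counts in the parental and 24 in the treated pair, a ratio of 7.91 with a 95% counting interval of 2.4 to 41.0. BCL2A1, a protective member, was higher by 2.99 ± 0.25 and stood at 1.53 and 1.26 CPM in parental and 9.95 and 12.2 CPM in treated cells, against 0.0477 CPM in the untreated Cal27 library. Markers of melanocytes and neural cells summed to 47.9 and 45.0 CPM in parental and 22.8 and 17.4 CPM in treated libraries, with NEFL at 11.6 and 8.52 CPM and 2.02 and 0.382 CPM.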
